A study of Arabidopsis thaliana with 18 samples.

Results

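The DPAM-1 by NaCl interaction asks, gene by gene, whether Arabidopsis thaliana seedlings responded to salt differently after the compound DPAM-1 than in its DMSO control. It is the log2 difference between NaCl and no NaCl after DPAM-1, minus the same difference in DMSO. The comparison uses 12 of the 18 libraries of the series, 3 in each of 4 groups, and all 14229 genes of the deposited count table. All seedlings were of the Col-0 genotype and grew in liquid MS medium. The DMSO groups received 1% (v/v) DMSO, and the DPAM-1 groups received 5 µM of DPAM-1, a compound named by its code. The compounds were given 4 days after germination. In the salt groups, NaCl was brought to 100 mM in the medium 16 h after the compound, and whole young seedlings were collected 2 h later. The other 6 libraries come from seedlings given 5 µM coronatine, a bacterial toxin that mimics the active form of the hormone jasmonate, without and with the same salt. They share the estimate of spread, are compared with DPAM-1 at the end, and give a separate set of salt genes in the closing observations. The labels name no solvent for the DPAM-1 groups, no mock addition and no harvest time for the groups without NaCl, and do not say whether the 3 libraries of a group came from separate cultures. The p-values therefore measure the spread between these libraries, which may be technical.

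RNA was read with Lasy-Seq, a multiplexed method that counts transcripts from their 3′ ends. The 12 libraries held between 13638981 and 34202322 reads. Every listed gene had at least 30 reads in each library, so genes that were silent or low in any library lie outside the table. Genes that NaCl raised from a low level can thus be missing. The summed level of 26 of 26 photosynthesis genes lay between 72800 and 93200 CPM (the read count of a gene over the scaled library total, on the usual CPM scale) in the 12 libraries. The summed root hair genes, 15 of 17 measured, lay between 257 and 375 CPM, and the guard cell genes, 7 of 12 measured, between 289 and 356 CPM. The 8 of 12 measured endodermis genes, of root tissue, summed to between 93.9 and 126 CPM in the DMSO libraries, 109 and 114 CPM in DMSO with NaCl, 131 and 135 CPM after DPAM-1, and 130 and 138 CPM after DPAM-1 with NaCl. They were thus higher in both DPAM-1 groups than in both DMSO groups, and their part in the results was not tested. Their median log2 interaction was -0.01. In whole seedlings, fewer cells of a type and less RNA per cell cannot be told apart. Replicate 1 of DMSO with NaCl stood apart for several genes, and for some the interaction without it is given beside the value. Among other genes described below, ERF104 moved from -2.55 to -2.26 without it, WRKY18 from -1.76 to -1.47, EXLA1 from -1.64 to -1.34, ATAF2 from -1.0 to -0.80 and MYB73 from -0.94 to -0.74. These stayed called. CYP94C1, not called, moved from -2.19 to -1.48. Some became lower without it, among them ZAT10, TCH3, CML38 and WRKY33. Without that library 73 genes were called in the interaction, 62 of them among the 71 described here.

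Salt reaches plant cells as an osmotic and an ionic stress. Within minutes it raises calcium and reactive oxygen in the cell, and a first set of transcription factor genes of the ZAT, WRKY and ERF families is switched on, together with calmodulin-like and touch-inducible genes. A slower branch runs through abscisic acid and raises dehydration proteins and osmolyte enzymes. Brassinosteroids are growth hormones that act through the transcription factors BZR1 and BES1 and raise cell wall loosening genes, among them xyloglucan endotransglucosylase/hydrolase (XTH) genes. The title of the series links the compound with part of the brassinosteroid gene programme and with sensitivity to salt.

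Several short promoter sequences are tied to these branches. The CGCG box is bound by calmodulin-binding transcription activators, the W-box by WRKY proteins, the ABRE by abscisic acid response factors, the DRE by DREB proteins, the GCC box by ERF proteins and the BRRE by BZR1. They were looked for in the 250 bases before the annotated start of each gene, on both strands, in the RefSeq TAIR10.1 assembly. Its nuclear chromosomes are those of TAIR10, the build named for the counts. Of the 70 genes that were lower in the interaction, described next, 30% (21 genes) held the CGCG box letters CGCGT. The share was 9.64% among the 1318 other genes that NaCl raised in DMSO, 7.36% among the 14101 tested genes with a window and 6.87% among 27443 annotated nuclear coding genes. The longer form CGCGTT, which contains the letters CGCGT, stood in 11.4% of the 70 windows. It stood in 3.64% of the other NaCl-raised genes and 2.61% of all tested genes. The W-box core TTGAC stood in 62.9% against 48.6%, with 44.1% of all tested genes. The GCC box GCCGCC stood in 5.71% (4 genes) against 1.44%, with 1.94% of all tested genes. The BRRE was searched as CGTGNG with any base at N, which also takes in sequences other than the BRRE. These letters stood in 24.3% against 16.3%, with 12.7% of all tested genes. The ABRE core ACGTG was found in 34.3% against 32.9%, with 24.0% of all tested genes. Its longer form, the G-box CACGTG, was found in 7.14% against 11.8%, with 7.59% of all tested genes. The DRE core CCGAC was found in 14.3% against 15.6%, with 13.4% of all tested genes. These shares describe letters in a window, were not tested, and were computed with the 70 genes known.

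The first windows below belong to the lower genes with the most CGCG box matches (AGP1, DIC2, NHL3 and MYB77), ties going to the lower interaction. ZAT12, which also has a match, was added by name. CGCG box matches are in capitals. RD29A, a dehydration gene outside the lower set, was added as well. It has no CGCG box and carries the DRE core, there in capitals. NaCl raised RD29A in both DMSO and DPAM-1, as it did 19 of the 70 lower genes, ZAT12 and NHL3 among them. ACGCGT reads the same on both strands and counts as 2 overlapping matches. Of the 70 genes, 49 had no match, 7 had 1, 11 had 2, 2 had 3 and 1 had 5. Among the 12 genes of lowest interaction, ZAT12, RTFL12 and MYB77 held a match and the others, XTH22 and ZAT10 among them, did not. AGP1 and NHL3 had interactions of -0.76 and -1.06. The windows read 5′ to 3′ along the gene and lie at chr5:25721483-25721732 (plus strand) for AGP1, chr4:12686209-12686458 (plus) for DIC2, chr5:1931783-1932032 (minus) for NHL3, chr3:18559327-18559576 (minus) for MYB77, chr5:24102564-24102813 (plus) for ZAT12 and chr5:21240467-21240716 (plus) for RD29A. The match of ZAT12 lay 45 to 41 bases before the gene start, and those of MYB77 joined into 1 run from 29 to 20 bases before it.
AGP1: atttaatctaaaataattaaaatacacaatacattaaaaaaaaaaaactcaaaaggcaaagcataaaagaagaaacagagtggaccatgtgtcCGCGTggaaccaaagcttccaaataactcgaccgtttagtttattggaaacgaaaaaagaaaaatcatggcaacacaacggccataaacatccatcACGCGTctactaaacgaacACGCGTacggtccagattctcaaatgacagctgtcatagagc
DIC2: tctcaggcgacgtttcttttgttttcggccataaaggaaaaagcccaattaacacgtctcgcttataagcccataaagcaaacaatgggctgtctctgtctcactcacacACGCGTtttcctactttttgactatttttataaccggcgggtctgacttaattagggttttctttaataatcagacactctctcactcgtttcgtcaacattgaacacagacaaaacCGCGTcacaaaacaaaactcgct
NHL3: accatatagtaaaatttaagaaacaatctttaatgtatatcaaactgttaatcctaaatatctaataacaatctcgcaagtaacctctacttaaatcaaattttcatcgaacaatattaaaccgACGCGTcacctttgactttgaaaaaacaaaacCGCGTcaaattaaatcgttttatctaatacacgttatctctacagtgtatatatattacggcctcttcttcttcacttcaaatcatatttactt
MYB77: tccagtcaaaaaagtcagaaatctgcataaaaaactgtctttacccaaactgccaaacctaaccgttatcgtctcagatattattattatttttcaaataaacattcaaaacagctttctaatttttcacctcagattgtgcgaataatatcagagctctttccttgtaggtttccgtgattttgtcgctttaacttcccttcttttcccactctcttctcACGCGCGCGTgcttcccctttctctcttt
ZAT12: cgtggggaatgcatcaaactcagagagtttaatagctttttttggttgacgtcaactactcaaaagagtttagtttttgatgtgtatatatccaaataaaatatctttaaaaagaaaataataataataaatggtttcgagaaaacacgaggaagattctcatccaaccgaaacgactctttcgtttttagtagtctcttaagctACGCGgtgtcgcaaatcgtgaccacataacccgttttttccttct
RD29A: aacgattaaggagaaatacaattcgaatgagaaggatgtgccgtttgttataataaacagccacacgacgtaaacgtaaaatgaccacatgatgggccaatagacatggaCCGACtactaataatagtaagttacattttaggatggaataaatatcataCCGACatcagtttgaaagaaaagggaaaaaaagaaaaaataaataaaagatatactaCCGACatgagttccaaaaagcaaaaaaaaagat

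The response to NaCl was lower after DPAM-1 than in DMSO for a set of genes that includes early stress transcription factor, calcium, touch and cell wall genes. Most of these rose less or were no longer called as raised, and some fell. The abscisic acid and osmotic stress list gave 0 calls with edgeR and 1 lower gene with DESeq2. In the interaction, 71 genes (0.499% of the 14229 tested) passed an adjusted p under 0.05 (edgeR quasi-likelihood test, Benjamini-Hochberg). Of these, 70 (0.492%) were lower, so that their response to NaCl was less positive or more negative after DPAM-1, and 1 (0.00703%) was higher. Without adjustment 809 of the 14229 genes had a p under 0.05, a threshold that a share of about 0.05 passes where nothing differs. DESeq2 called 104. Of the 71 genes, 53 had a difference of at least 1 on the log2 scale. The median log2 interaction was 0.01 over all genes and -1.43 over the 70 lower genes, which ran from -3.35 to -0.62.

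The NaCl response itself was broad in both treatments. In DMSO, NaCl raised 1395 genes (9.8% of those tested) and lowered 1121 (7.88%), together 17.7%. After DPAM-1 it raised 984 (6.92%) and lowered 758 (5.33%), together 12.2%. The 752 genes raised in both make up 53.9% of those raised in DMSO and 76.4% of those raised after DPAM-1. The 506 genes lowered in both make up 45.1% and 66.8%. A further 8 genes were raised in one and lowered in the other. A gene called in one treatment and not in the other is not shown to differ, and the interaction is the test of that.

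**Figure D1:**
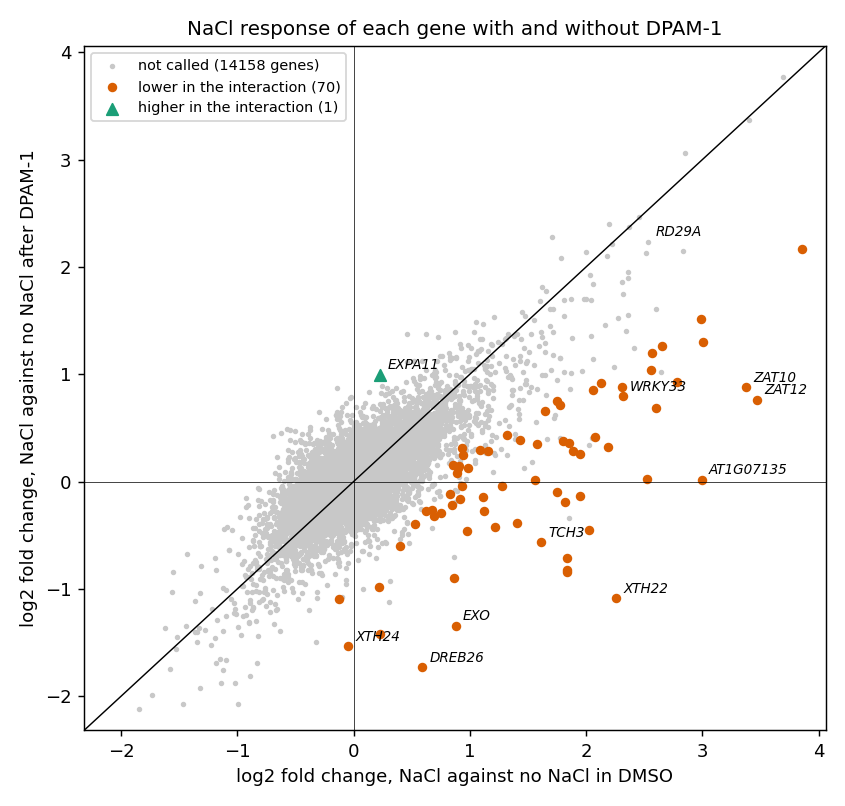
Log2 fold change of each of 14229 genes under NaCl in DMSO (horizontal axis) and after DPAM-1 (vertical axis), with the line of equal response. The 70 genes lower in the interaction (orange) lie below the line, most with a rise in DMSO, EXPA11 (green triangle) lies above it, and RD29A lies near it.

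The 70 lower genes were built in more than one way. Since the comparisons that follow are made of the same 12 libraries as the interaction, their counts describe its parts and are no further support for it. NaCl raised 65 of the 70 in DMSO (9.8% of all genes) and gave no call for 5. After DPAM-1 it raised 19 (6.92% of all genes), lowered 13 (5.33%) and gave no call for 38. By both responses, 19 were raised in both, 38 were raised in DMSO and not called after DPAM-1, 8 were raised in DMSO and lowered after DPAM-1, and 5 were not called in DMSO and lowered after DPAM-1. The median log2 response of the 70 to NaCl was 1.57 in DMSO and 0.05 after DPAM-1. Without NaCl, DPAM-1 changed 1.02% of all genes and raised 0.801%, and 28 of the 70 were higher. Under NaCl it changed 0.576% of all genes and lowered 0.401%, and 38 of the 70 were lower. For 10 genes both held, for 18 the first alone was called, for 28 the second alone, and for 14 neither. The medians were 0.64 without NaCl and -0.72 under NaCl.

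By mean over the 4 groups compared, 63 of the 70 genes were highest in DMSO with NaCl and 7 in DPAM-1 without NaCl. Means were lowest in DMSO for 61 and in DPAM-1 with NaCl for 9. Every library of DMSO with NaCl lay above every library of DPAM-1 with NaCl for 54 of the 70 genes, which holds for 8.55% of all genes. Every DPAM-1 library lay above every DMSO library without NaCl for 59, against 9.75% of all genes. NaCl separated the libraries upward for 62 of the 70 in DMSO and for 24 after DPAM-1, against 16% and 16.1% of all genes.

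Transcription factor genes of the first stress wave were part of the lower set. Of 32 listed early stress transcription factor genes 18 were measured, 7 were lower (0.492% of all genes), 0 were higher, and their median was -0.58. NaCl raised 17 of the 18 in DMSO (9.8% of all genes). After DPAM-1 it raised 11 (6.92% of all genes) and lowered 2 (5.33%). Of the 7 lower genes, ZAT10, ZAT12, WRKY33 and WRKY40 still rose with NaCl after DPAM-1, ERF-1 gave no call, and ERF104 and WRKY18 fell.

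ZAT10 (AT1G27730), a zinc-finger repressor induced by salt and cold, read 4.72, 7.84 and 4.87 CPM in the 3 DMSO libraries and 52.6, 67.9 and 61.3 CPM in DMSO with NaCl. After DPAM-1 it read 14.8, 16.1 and 12.3 CPM, and after DPAM-1 with NaCl 24.9, 27.6 and 26.9 CPM. The 4 groups did not overlap, and their order was DMSO, DPAM-1, DPAM-1 with NaCl and DMSO with NaCl. NaCl raised ZAT10 10.4-fold in DMSO and 1.84-fold after DPAM-1, a log2 interaction of -2.49 ± 0.21 (SE, adjusted p = 2.13e-07). ZAT12 (AT5G59820), a zinc-finger regulator of responses to reactive oxygen, had the same order without overlap. It read 3.19, 3.56 and 2.56 CPM in DMSO, 33.5, 41.5 and 28.5 CPM in DMSO with NaCl, 7.76, 8.77 and 6.90 CPM after DPAM-1, and 12.1, 10.1 and 17.4 CPM after DPAM-1 with NaCl. Its rise was 11.1-fold in DMSO and 1.70-fold after DPAM-1 (-2.70 ± 0.28, adjusted p = 8.94e-06).

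WRKY33 (AT2G38470), a regulator of defence and of camalexin synthesis, differed more at the start than at the end. It read 5.78, 5.94 and 7.74 CPM in DMSO and 15.0, 15.8 and 14.4 CPM after DPAM-1, without overlap. Under NaCl it read 25.4, 28.2 and 43.3 CPM in DMSO and 24.1, 30.6 and 23.7 CPM after DPAM-1, and these overlapped. The interaction was -1.52 ± 0.25 (adjusted p = 0.00259). WRKY40 (AT1G80840), a related repressor, read from 3.31 to 3.69 CPM in DMSO, 16.1 to 26.4 CPM in DMSO with NaCl, 5.45 to 8.38 CPM after DPAM-1 and 10.7 to 15.0 CPM after DPAM-1 with NaCl. The 4 groups did not overlap, and its interaction was -1.53 ± 0.28 (adjusted p = 0.00539). WRKY18 (AT4G31800), its close partner, rose 1.82-fold with NaCl in DMSO and fell 1.86-fold after DPAM-1 (-1.76 ± 0.27, adjusted p = 0.00122). Of 27 measured members of the WRKY family these 3 were the called ones, all lower (0.492% of all genes).

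**Figure D2:**
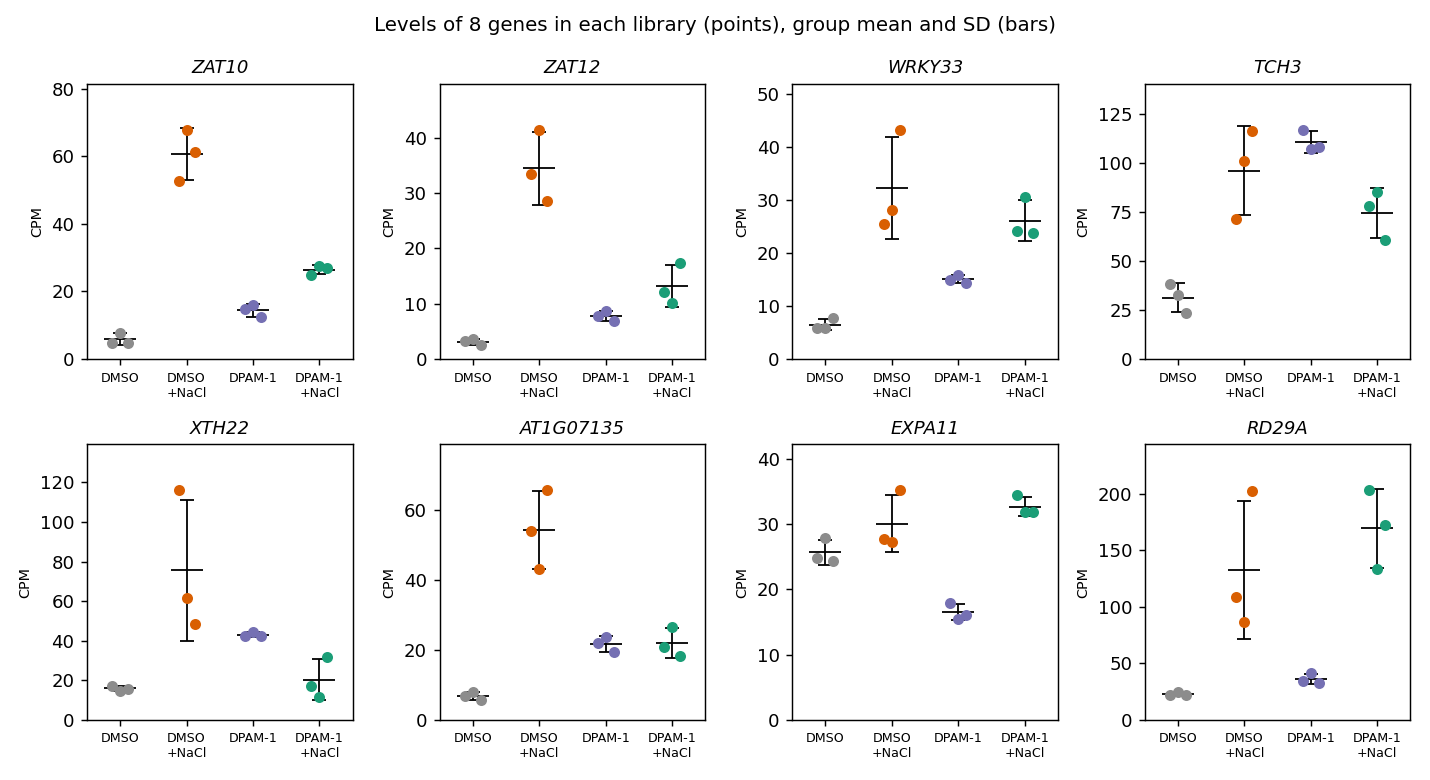
Level of 8 genes in each of the 12 libraries (CPM, linear axes from 0; points are libraries, bars the mean and SD, n = 3). ZAT10, ZAT12, XTH22 and AT1G07135 rise in DMSO with NaCl above DPAM-1 with NaCl, WRKY33 and TCH3 differ mainly without NaCl, EXPA11 is lowest after DPAM-1 without NaCl, and RD29A rises in both.

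The ERF and DREB family gave 4 lower genes among 19 measured (0.492% of all genes). Its ethylene response factors bind the GCC box. ERF104 (AT5G61600) read 3.80, 5.36 and 4.20 CPM in DMSO, 21.5, 16.5 and 9.69 CPM in DMSO with NaCl, 9.67, 9.32 and 9.71 CPM after DPAM-1, and 6.02, 6.44 and 5.01 CPM after DPAM-1 with NaCl. NaCl raised it 3.57-fold in DMSO and lowered it 1.64-fold after DPAM-1 (-2.55 ± 0.32, adjusted p = 8.17e-05). ERF-1 (AT4G17500) read from 9.84 to 12.8 CPM in DMSO, 33.3 to 73.4 CPM in DMSO with NaCl, 16.3 to 20.7 CPM after DPAM-1 and 21.1 to 27.2 CPM with both (-1.66 ± 0.29, adjusted p = 0.00416). Its 4 groups did not overlap, and without replicate 1 of DMSO with NaCl, its highest library, the interaction was -1.23 (adjusted p = 0.00104). ERF2 (AT5G47220) read 42.8, 20.8 and 14.7 CPM in DMSO with NaCl against 12, 14.9 and 12.6 CPM with both. Its interaction was -1.87 ± 0.39 (adjusted p = 0.0194), -1.30 without replicate 1 of DMSO with NaCl, and the call was lost in 5 of 22 alternatives, each leaving out 1 library. DREB26 (AT1G21910), an AP2-type factor, read 65.0, 25.3 and 17.7 CPM in DMSO with NaCl, where replicate 1 alone lay above the 18.9 to 28.4 CPM of DMSO, and 7.60, 8.97 and 9.70 CPM with both against 26.4 to 31.5 CPM after DPAM-1 alone. NaCl lowered it 3.31-fold after DPAM-1, and in DMSO its change did not pass (log2 0.59, adjusted p = 0.18). The interaction of -2.32 ± 0.44 (adjusted p = 0.00795) became -1.56 (adjusted p = 0.00521) without replicate 1 of DMSO with NaCl.

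Among 27 measured MYB genes 2 were lower (0.492% of all genes). MYB77 (AT3G50060), a factor of auxin responses in lateral root growth, read 9.33, 5.99 and 6.51 CPM in DMSO and 46.6, 25.5 and 15.9 CPM in DMSO with NaCl. After DPAM-1 it read 12.4, 10.8 and 10.1 CPM, and with both 7.33, 6.09 and 10.8 CPM, so the 2 DPAM-1 groups overlapped. The interaction was -2.47 ± 0.41 (adjusted p = 0.00233), and -1.96 (adjusted p = 0.00262) without replicate 1 of DMSO with NaCl. Its relative MYB73 (AT4G37260) rose 1.78-fold with NaCl in DMSO, gave no call after DPAM-1 (log2 -0.11, adjusted p = 0.67), and had an interaction of -0.94 ± 0.18 (adjusted p = 0.00739). ATAF2 (AT5G08790), a NAC factor of wounding, rose 3.36-fold in DMSO and 1.68-fold after DPAM-1 (-1.0 ± 0.19, adjusted p = 0.00739). UPB1 (AT2G47270), a bHLH factor that sets the balance of reactive oxygen in the root tip, had an interaction of -0.94 ± 0.21 (adjusted p = 0.0473) that was lost in 14 of 22 alternatives.

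A second list held calcium and touch genes. Of 18 listed genes 15 were measured, 3 were lower (0.492% of all genes), 0 were higher, 14 had an interaction below 0 (48.8% of all genes), and the median was -0.36. The 3 were TCH3, CML38 and XTH22, which the list shares with the cell wall genes. Among the 15 measured genes, NaCl raised 7 (9.8% of all genes) and lowered 1 (7.88%) in DMSO. After DPAM-1 it raised 1 (6.92%) and lowered 3 (5.33%). TCH3 (AT2G41100), a calmodulin-like calcium sensor, read 38.1, 32.4 and 23.3 CPM in DMSO, 71.3, 101 and 116 CPM in DMSO with NaCl, 117, 107 and 108 CPM after DPAM-1, and 77.9, 85.2 and 60.6 CPM with both. DMSO alone stood below the other 3 groups, and the NaCl groups overlapped. NaCl raised TCH3 3.06-fold in DMSO and lowered it 1.48-fold after DPAM-1 (-2.18 ± 0.26, adjusted p = 3.42e-05). CML38 (AT1G76650), another calmodulin-like protein, read 7.55, 4.04 and 4.92 CPM in DMSO, 12.9, 23.3 and 22.6 CPM in DMSO with NaCl, 12.8, 12.5 and 9.83 CPM after DPAM-1, and 9.56, 9.74 and 11.2 CPM with both. It rose 3.53-fold in DMSO and gave no call after DPAM-1 (-2.01 ± 0.31, adjusted p = 0.00122). Outside the list, AT4G27280, annotated as a calcium-binding EF-hand protein, rose 3.56-fold in DMSO, from 10.2 to 15.6 CPM up to 30.6 to 67.8 CPM. After DPAM-1 it fell 1.79-fold, from 35.7 to 39.3 CPM down to 19.2 to 22.6 CPM (-2.67 ± 0.29, adjusted p = 1e-05), and -2.31 without replicate 1 of DMSO with NaCl. SRC2 (AT1G09070), also outside it, a membrane protein with a calcium-binding C2 domain, read 113, 113 and 101 CPM in DMSO with NaCl and from 56.9 to 77.1 CPM in all other libraries of the 4 groups (-0.78 ± 0.12, adjusted p = 0.00142).

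Cell wall genes made up the next group, and XTH22 (AT5G57560) had the lowest interaction of all genes with all 12 libraries. It encodes a xyloglucan endotransglucosylase/hydrolase, is also known as TCH4, and is induced by touch and by brassinosteroids. XTH22 read 17.2, 14.8 and 15.6 CPM in DMSO and 116, 61.8 and 48.6 CPM in DMSO with NaCl. After DPAM-1 it read 42.4, 44.6 and 42.3 CPM, and with both 17.3, 11.6 and 31.9 CPM. NaCl thus raised it 4.78-fold in DMSO and lowered it 2.13-fold after DPAM-1, an interaction of -3.35 ± 0.39 (adjusted p = 3.37e-05). Without replicate 1 of DMSO with NaCl it was -2.88 (adjusted p = 2.54e-05), and the glycine-rich protein gene AT1G07135, at -2.99, was lower. Its relative XTH23 (AT4G25810) read 28.0, 33.8 and 14.4 CPM in DMSO with NaCl over 6.29 to 8.10 CPM in DMSO, and 8.25, 5.81 and 16.0 CPM with both against 14.3 to 20.6 CPM after DPAM-1 (-2.66 ± 0.40, adjusted p = 0.00121).

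XTH24 (AT4G30270) and XTH18 (AT4G30280), of the same family, differed in another way. NaCl gave no call for either in DMSO (log2 -0.05 and -0.12). XTH24 read 60.0, 55.7 and 55.8 CPM in DMSO, 75.5, 27.9 and 61.4 CPM in DMSO with NaCl, 97.8, 108 and 100.0 CPM after DPAM-1, and 36.5, 39.3 and 29.9 CPM with both. The DPAM-1 libraries stood above all others of the 4 groups, and NaCl lowered XTH24 2.89-fold there (-1.48 ± 0.28, adjusted p = 0.00743). XTH18 read 102, 72.2 and 89.4 CPM after DPAM-1 and from 38.4 to 53.4 CPM in the other 9 libraries of the 4 groups. Its interaction was -0.97 ± 0.20 (adjusted p = 0.0144), and 3 alternatives lost the call, among them that without replicate 3 of DMSO. Of 32 XTH genes 20 were measured, and these 4 were lower (0.492% of all genes).

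In the wider list of XTH and expansin genes, 26 of 32 were measured and the median was -0.04. Of these, 4 were lower (0.492% of all genes) and 1 was higher (0.00703%). The brassinosteroid-induced list, 16 of 22 measured, had 3 lower genes (0.492% of all genes), all XTH genes named above. In that list 0 were higher, and the median was -0.16. The 12 measured brassinosteroid biosynthesis genes and the 12 signalling genes gave 0 calls in the interaction, with medians of 0.10 and -0.08 and 0 genes each with an unadjusted p under 0.05 or a DESeq2 call. The genes of smallest p were DWF5 (0.23) and DIM (0.16), of synthesis, and the transcription factors BEH2 (-0.24) and BES1 (0.16). CPD, a cytochrome P450 of brassinosteroid synthesis, read from 25 to 29.2 CPM in DMSO, 29.2 to 35.3 CPM in DMSO with NaCl, 25.6 to 26.7 CPM after DPAM-1 and 31.5 to 32.8 CPM with both. Its interaction was 0.09 with a 95% interval from -0.21 to 0.39. DWF4, another P450 of the pathway, had an interaction of 0.21 with an interval from -0.26 to 0.68.

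Outside the family, EXO (AT4G08950), a cell expansion gene of the brassinosteroid response, read 57.9, 50.9 and 51.8 CPM in DMSO and 181, 52.4 and 60.1 CPM in DMSO with NaCl. After DPAM-1 it read 78.7, 85.0 and 87.6 CPM, and with both 27.3, 30.6 and 41.5 CPM, the lowest of the 4 groups. The interaction was -2.22 ± 0.41 (adjusted p = 0.00635), and -1.42 (adjusted p = 0.000374) without replicate 1 of DMSO with NaCl. EXO was the called member among 17 measured sugar starvation and dormancy genes (0.499% of all genes were called). Its place on that list was set by hand. EXLA1 (AT3G45970), an expansin-like gene, rose 2.33-fold in DMSO and gave no call after DPAM-1 (-1.64 ± 0.29, adjusted p = 0.00526). XT1 (AT3G62720), a xylosyltransferase that builds xyloglucan, gave no call in DMSO and fell 1.98-fold after DPAM-1 (-1.20 ± 0.26, adjusted p = 0.0233), a call lost in 9 of 22 alternatives. AGP1 (AT5G64310), a cell surface arabinogalactan protein, read 171, 170 and 186 CPM in DMSO with NaCl. It read from 86.6 to 134 CPM in all other libraries of the 4 groups (-0.76 ± 0.15, adjusted p = 0.011). Its call was lost without replicate 2 of DPAM-1 with NaCl (adjusted p = 0.0532).

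AT1G07135, annotated as a glycine-rich protein, had the smallest adjusted p of the interaction. It read 6.74, 7.99 and 5.69 CPM in DMSO, 54.1, 43.3 and 65.7 CPM in DMSO with NaCl, 21.9, 23.8 and 19.3 CPM after DPAM-1, and 20.7, 26.7 and 18.4 CPM with both. NaCl raised it 7.98-fold in DMSO and 1.01-fold, with no call, after DPAM-1 (-2.98 ± 0.23, adjusted p = 7.55e-08). RTFL12 (AT4G13395), of the ROTUNDIFOLIA-like family of small growth peptides, read 31.5, 9.68 and 8.06 CPM in DMSO with NaCl. It read from 2.63 to 4.53 CPM in all other libraries of the 4 groups. Its interaction of -2.50 ± 0.53 (adjusted p = 0.0233) became -1.59 (adjusted p = 0.00764) without replicate 1 of DMSO with NaCl, and 8 of the other left-out libraries ended the call.

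Hormone lists held few calls, beside 0.499% of all genes called in the interaction. JAZ1 (AT1G19180), a repressor of jasmonate signalling that jasmonate itself induces, read 43.0, 38.3 and 40.5 CPM in DMSO, 114, 95.7 and 93.3 CPM in DMSO with NaCl, 48.7, 64.8 and 44.8 CPM after DPAM-1, and 73.5, 75.3 and 64.9 CPM with both. It rose 2.49-fold in DMSO and 1.35-fold after DPAM-1 (-0.88 ± 0.15, adjusted p = 0.00416), and was the 1 called gene of 9 measured JAZ genes, whose median was -0.37. MYC2 (AT1G32640), the transcription factor that JAZ proteins hold back, rose 2.99-fold in DMSO to 37.2, 48.2 and 31.7 CPM and reached 22.5, 24.0 and 24.9 CPM with both (-1.23 ± 0.21, adjusted p = 0.00259). It was the called gene of 15 measured jasmonate output genes. Among 18 measured jasmonate biosynthesis and catabolism genes 0 passed (3 at an unadjusted p under 0.05 and 0 with DESeq2). NaCl raised 11 of them in each treatment (9.8% of all genes in DMSO and 6.92% after DPAM-1). CYP94C1, which inactivates jasmonate, had an interaction of -2.19 that did not pass (adjusted p = 0.143), and OPCL1, of jasmonate synthesis, had -0.54. OPR1 (AT1G76680), an oxophytodienoate reductase listed with the detoxification genes, read 54.5, 67.8 and 57.1 CPM in DMSO with NaCl and 44.4, 44.1 and 48.4 CPM with both (-1.01 ± 0.16, adjusted p = 0.00135). It was the called gene of 23 measured glutathione transferase and detoxification genes, 22 of which had an interaction below 0 (48.8% of all genes), with a median of -0.28. NaCl raised 17 of the 23 in DMSO (9.8% of all genes) and 9 after DPAM-1 (6.92%).

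In the ethylene list, 2 of 20 measured genes were lower (0.492% of all genes). They were ERF2 and ACS6 (AT4G11280), a stress-induced enzyme of ethylene synthesis. ACS6 read 4.16, 4.82 and 6.66 CPM in DMSO, 31.9, 32.6 and 28.1 CPM in DMSO with NaCl, 6.63, 7.20 and 5.83 CPM after DPAM-1, and 15.4, 13.4 and 16.2 CPM with both. The 2 groups without NaCl overlapped and those with NaCl did not. NaCl raised it by log2 2.57 in DMSO and 1.2 after DPAM-1, an interaction of -1.36 ± 0.24 (adjusted p = 0.00425). DFL2 (AT4G03400), of the GH3 family that conjugates hormones to amino acids, rose 1.44-fold in DMSO and fell 1.32-fold after DPAM-1 (-0.93 ± 0.17, adjusted p = 0.0064). Auxin, gibberellin, cytokinin and salicylic acid lists, with 18, 12, 14 and 7 measured genes, held 0 calls, and 2, 2, 0 and 0 genes with an unadjusted p under 0.05. DESeq2 called 0 in each.

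Among called genes picked for their known roles after their values were seen were kinase and RNA-binding genes. MKK9 (AT1G73500), a kinase that activates MAP kinases in ethylene and salt responses, rose 2.65-fold in DMSO and gave no call after DPAM-1 (-1.79 ± 0.34, adjusted p = 0.00795), with -1.31 (adjusted p = 0.00902) without replicate 1 of DMSO with NaCl. MAPKKK14 (AT2G30040), a kinase of an upper tier of such cascades, read 31.3, 15.9 and 12.1 CPM in DMSO with NaCl. It read from 6.07 to 9.19 CPM in all other libraries of the 4 groups (-1.55 ± 0.35, adjusted p = 0.047). The call was lost in 13 of 22 alternatives, among them that without replicate 1 of DMSO with NaCl (-1.03, adjusted p = 0.063). SZF1 (AT3G55980), a salt-inducible CCCH zinc-finger protein, read 37.4, 29.0 and 33.4 CPM in DMSO with NaCl and 14.6, 16.1 and 15.9 CPM with both. It rose 3.85-fold in DMSO and gave no call after DPAM-1 (-1.69 ± 0.19, adjusted p = 2.19e-05). CAF1a (AT3G44260), which shortens the poly(A) tails of messenger RNA, rose 3.36-fold in DMSO with no call after DPAM-1 (-1.84 ± 0.30, adjusted p = 0.00183). NUDT7 (AT4G12720), a Nudix hydrolase that restrains defence, read 48.1, 38.6 and 44.2 CPM after DPAM-1, overlapping the 38.7 to 52.6 CPM of DMSO with NaCl and above the 22.8 to 24.9 CPM of DMSO (-1.07 ± 0.16, adjusted p = 0.00121).

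Genes of mitochondria and membranes were picked from the called genes in the same way. DIC2 (AT4G24570), a dicarboxylate carrier of the inner mitochondrial membrane, read 5.98, 6.62 and 5.07 CPM in DMSO, 24.3, 18.8 and 24.9 CPM in DMSO with NaCl, 12.6, 11.5 and 9.22 CPM after DPAM-1, and 9.12, 10.6 and 10.5 CPM with both. Both DPAM-1 groups lay between the DMSO groups and overlapped each other (-2.08 ± 0.22, adjusted p = 8.94e-06). BCS1 (AT3G50930), an ATPase of the outer mitochondrial membrane induced by stress, rose 8.04-fold in DMSO and 2.47-fold after DPAM-1 (-1.70 ± 0.26, adjusted p = 0.00121). NHL3 (AT5G06320), a plasma membrane protein of pathogen responses, rose 3.41-fold and 1.64-fold (-1.06 ± 0.19, adjusted p = 0.00635). TET8 (AT2G23810), a tetraspanin of extracellular vesicles, rose by log2 1.08 in DMSO and gave no call after DPAM-1 (-0.79 ± 0.14, adjusted p = 0.00467). PUP14 (AT1G19770), a cytokinin carrier, and PUP18 (AT1G57990), of the same purine permease family, had interactions of -1.0 ± 0.19 and -1.40 ± 0.26 (adjusted p = 0.00908 and 0.00739). The 27 called genes not described singly were all lower, from -1.92 to -0.62. NaCl raised 26 of them in DMSO (9.8% of all genes), and after DPAM-1 it raised 10 (6.92%) and lowered 1 (5.33%).

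**Figure D3:**
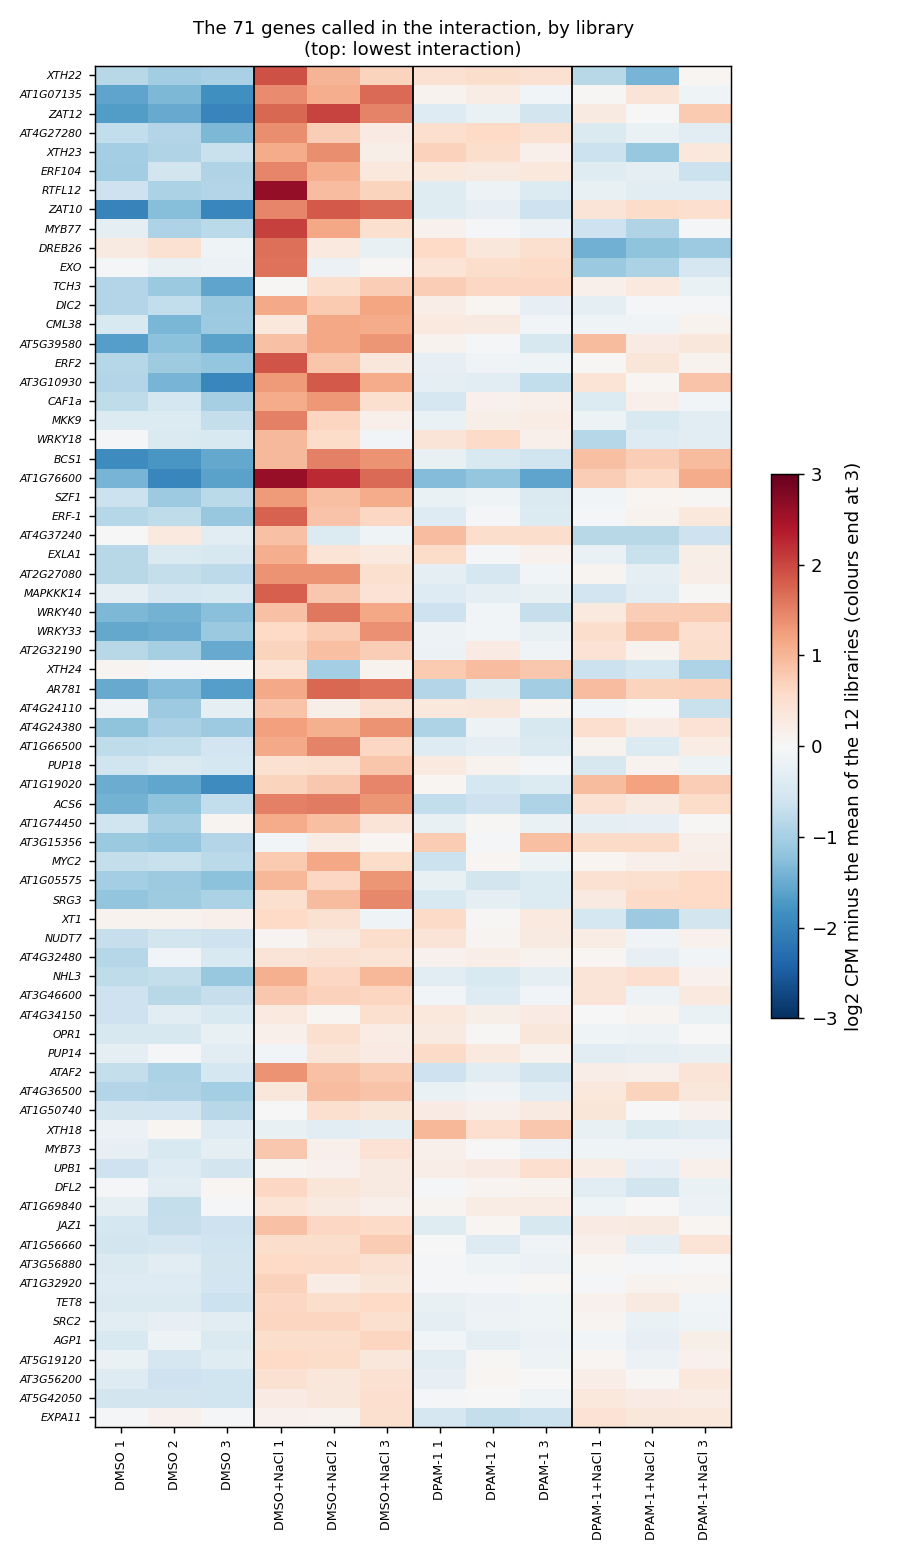
Log2 CPM of the 71 called genes in the 12 libraries, minus each gene's mean over them (colour, ending at 3), ordered from the lowest interaction at the top. Most genes are lowest in DMSO and highest in DMSO with NaCl, the 2 DPAM-1 groups lie between, and EXPA11 in the last line is low after DPAM-1 alone.

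EXPA11 (AT1G20190), an expansin that loosens cell walls, was the 1 higher gene. It read 24.8, 27.9 and 24.4 CPM in DMSO, 27.8, 27.3 and 35.2 CPM in DMSO with NaCl, 17.9, 15.5 and 16.1 CPM after DPAM-1, and 34.4, 31.9 and 31.8 CPM with both. The DPAM-1 libraries without NaCl lay below all others of the 4 groups, and under NaCl the treatments overlapped. NaCl raised EXPA11 1.99-fold after DPAM-1 and gave no call in DMSO (log2 0.23), an interaction of 0.77 ± 0.15 (adjusted p = 0.011). Without replicate 1 of DPAM-1 with NaCl the adjusted p was 0.0517. The 5 further genes of smallest p in this direction did not pass. They were PAP9, a purple acid phosphatase, at 1.08 (adjusted p = 0.089), the SAUR-like gene AT2G21210 at 0.51 (0.146), the pectin methylesterase inhibitor gene AT5G62340 at 0.49 (0.159), the lipid-transfer protein gene AT4G12520 at 0.76 (0.159) and the calreticulin gene CRT1b at 0.37 (0.165).

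Most other salt genes gave no call in the interaction. The abscisic acid and osmotic stress list, 29 of 39 measured, had 0 calls, 3 genes with an unadjusted p under 0.05, 1 DESeq2 call and a median of -0.06. NaCl raised 24 of its genes in DMSO (9.8% of all genes) and 23 after DPAM-1 (6.92%), with median log2 responses of 1.09 and 1.12. RD29A (AT5G52310), a dehydration gene under DREB and abscisic acid control, read 22.3, 24.2 and 22.1 CPM in DMSO, 109, 86.9 and 202 CPM in DMSO with NaCl, 34.2, 41.2 and 32.7 CPM after DPAM-1, and 203, 133 and 172 CPM with both. The NaCl groups overlapped widely. Its interaction was -0.30, with a 95% interval from -0.91 to 0.30, which leaves room for a difference in either direction. NAC055, a NAC factor of the list, had -0.81 (adjusted p = 0.504), and NAC102 (AT5G63790), another, lay just outside the threshold at -0.66 ± 0.15 (adjusted p = 0.0566) and passed in 5 of 22 alternatives (adjusted p from 0.00508 to 0.208). It read 117, 110 and 109 CPM in DMSO with NaCl and 77.3, 75.9 and 83.6 CPM with both, without overlap.

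Abscisic acid receptor and phosphatase genes, osmolyte synthesis genes and sodium and potassium transport genes, with 15 measured each, had 0 calls and medians of 0.05, -0.04 and 0.11. At an unadjusted p under 0.05 there were 2, 3 and 0, and DESeq2 called 0 in each. The members of smallest p were the receptor genes PYL5 (-0.56) and PYL4 (-0.46), DIN10 (-0.51) and the proline dehydrogenase gene ERD5 (-0.53), and the transporter genes NHX6 (-0.37) and KUP6 (0.37). P5CS1, the enzyme that commits glutamate to proline, responded with log2 1.38 in DMSO and 1.36 after DPAM-1. Its interaction was -0.02, with a 95% interval from -0.77 to 0.73. SOS1, the plasma membrane sodium exporter, had an interaction of 0.25 with an interval from -0.29 to 0.79. EXPA1, an expansin that NaCl raised by log2 1.78 in DMSO and 2.08 after DPAM-1, had 0.30 with an interval from 0.00 to 0.60 (adjusted p = 0.861). VSP2, a jasmonate-induced storage protein whose reads may be shared with VSP1, had 0.02 with an interval from -0.55 to 0.60. The photosynthesis genes, 26 measured, gave 0 calls and a median of -0.05. In all, 9 of the 33 lists held a call. Of their 503 distinct measured genes 20 were called (0.499% of all genes), 19 of them lower. The 24 lists without a call include those for glucosinolates, flavonoids, reactive oxygen scavenging, aquaporins, heat shock, hypoxia, the clock, cell division, iron deficiency, root hairs, endodermis and guard cells. Their medians lay between -0.16 and 0.11.

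**Figure D4:**
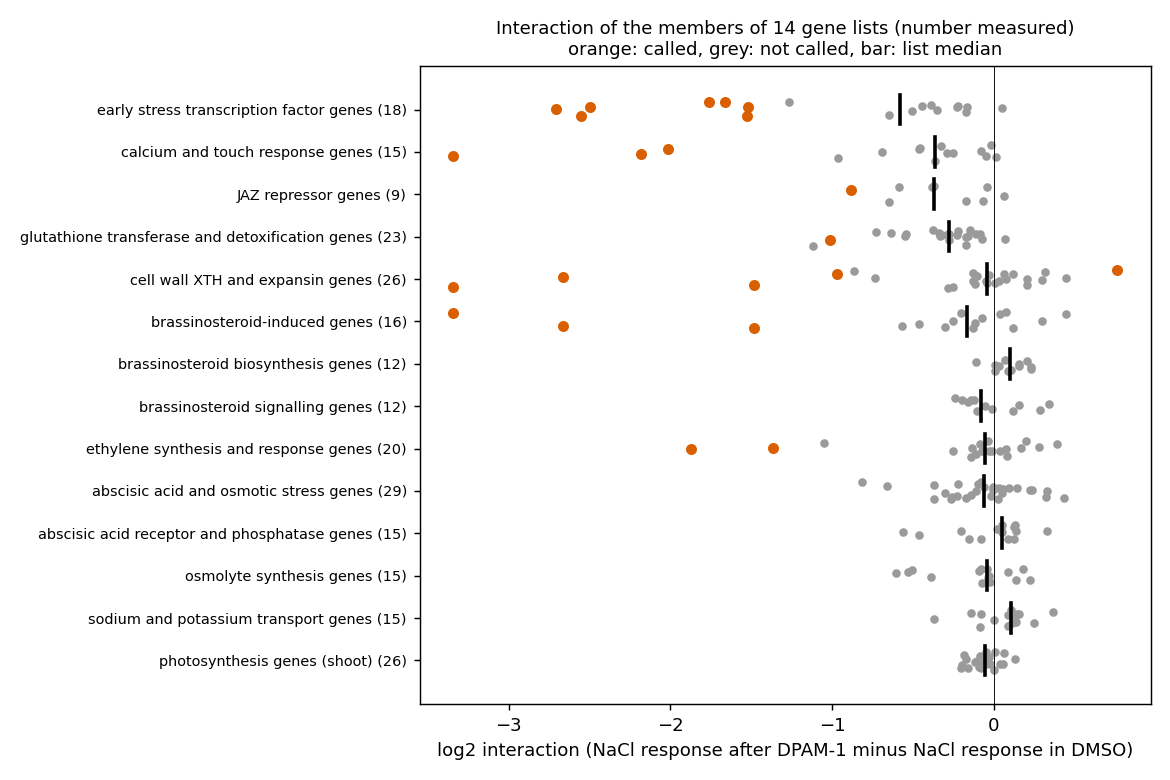
Log2 interaction of each measured gene of 14 lists (points, orange where called, grey where not; black bars are list medians; the number measured stands beside each list). Calls to the left gather in the early stress transcription factor, calcium and touch, and XTH lists, while the abscisic acid, osmolyte and ion transport lists centre near 0.

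The salt response after DPAM-1 was also set against that after coronatine, a comparison without the DMSO libraries that shares the 6 DPAM-1 libraries with the interaction. It called 575 genes (4.04% of those tested), 250 higher (1.76%) and 325 lower (2.28%) after DPAM-1. Of the 70 genes above, 18 were lower here, 0 were higher and 52 gave no call, and their median was -0.46. XTH22 was lower by this comparison (-1.67 ± 0.39, adjusted p = 0.0154), as it read 21.0, 15.3 and 16.0 CPM after coronatine and 32.4, 21.5 and 24.2 CPM with NaCl. TCH3 was lower too (-1.37 ± 0.26, adjusted p = 0.0035), at 20.4, 29.3 and 19.0 CPM after coronatine and 41.3, 32.5 and 46.5 CPM with NaCl. So were SRC2 (-0.81 ± 0.12, adjusted p = 0.00057), AT1G07135 (-1.44, adjusted p = 0.000712) and XTH24 (-1.07, adjusted p = 0.0263). ZAT10 missed the threshold at -0.66 (95% interval -1.05 to -0.26, adjusted p = 0.0537), with 36.8, 32.4 and 31.4 CPM after coronatine and 105, 88.1 and 99.2 CPM with NaCl. WRKY33 had 0.02 with an interval from -0.51 to 0.54, and MYC2 -0.01 with an interval from -0.42 to 0.39. MYC2 stood between 165 and 251 CPM in the 6 coronatine libraries, far above its level in the other 12.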

How the data were processed

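Seedling RNA was sequenced with Lasy-Seq v1.1, per the labels. The authors deposited raw read counts per gene. Per the submitters' processing notes, bcl2fastq, Trimmomatic, HISAT2, featureCounts and DESeq2 were used with the TAIR10 build, without versions or roles. A second deposited table of scaled values was not used. Strand use in counting is not given in the sources used here, so overlapping and antisense genes cannot be told apart.

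The tests ran in edgeR 4.0.16 (R 4.3.3, limma 3.58.1). The expression filter removed 0 genes. TMM factors lay between 0.847 and 1.13, the biological coefficient of variation was 10.4%, and all 18 libraries entered 1 quasi-likelihood fit of 6 group means. Tests were two-sided, and calls used a Benjamini-Hochberg adjusted p under 0.05 over 14229 genes in each of 7 comparisons. The procedure was checked on simulated counts. Reads without molecular identifiers are not independent molecules. Replicates of a group differed beyond counting noise, with a chi-square between 3.85 and 21 per degree of freedom. Codes were matched to TAIR10.1, which held 14105 of them and symbols for 6686. Near-identical copies (GSTF6 and GSTF7, VSP1 and VSP2, KIN1 and KIN2) are uncertain.

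Genes, lists and comparisons were chosen with earlier results of these data known. Named are the 12 called genes of lowest and of highest interaction whose log2 CPM averaged 2 or more, up to 6 genes of smallest p where fewer were called, up to 3 called (or 2 uncalled) members per list, and 16 markers, of which 13 were tested (DREB2A, HAI1 and NCED3 are not analysed here). Uncalled members are printed for the salt, jasmonate and brassinosteroid lists. A further 23 called genes and MPK3 were named after their values were seen, for their known roles, and promoter motifs and salt genes picked from the coronatine libraries were added then too. Of 663 distinct list genes 503 were tested, and 5 members were dropped because the annotation names their codes differently. Alternatives were DESeq2 1.42.0, other scalings and filters, organelle genes removed, a replicate block, the compared libraries alone, a fold limit, and each library left out in turn.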

Additional observations from a re-analysis of the deposited data

Results flagged for a closer look

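Several results are listed here because the response to NaCl differed between treatments by a direct test of that difference. The DPAM-1 by NaCl interaction against DMSO called 71 genes, and the same contrast against coronatine called 575. Groups hold 3 libraries each, so single libraries were not tested as outliers.

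The called genes named above, with the log2 interaction of each in parentheses, fall into groups. Transcription factor genes were ZAT12 (-2.70), ERF104 (-2.55), ZAT10 (-2.49), MYB77 (-2.47), DREB26 (-2.32), ERF2 (-1.87), WRKY18 (-1.76), ERF-1 (-1.66), WRKY40 (-1.53), WRKY33 (-1.52), MYC2 (-1.23), ATAF2 (-1.0), MYB73 (-0.94) and UPB1 (-0.94). Genes of calcium-binding proteins were AT4G27280 (-2.67), TCH3 (-2.18), CML38 (-2.01) and SRC2 (-0.78). Cell wall and growth genes, with XTH22 also on the calcium and touch list, were XTH22 (-3.35), XTH23 (-2.66), RTFL12 (-2.50), EXO (-2.22), EXLA1 (-1.64), XTH24 (-1.48), XT1 (-1.20), XTH18 (-0.97), AGP1 (-0.76) and EXPA11 (0.77). Hormone, kinase and RNA decay genes were CAF1a (-1.84), MKK9 (-1.79), SZF1 (-1.69), MAPKKK14 (-1.55), ACS6 (-1.36), NUDT7 (-1.07), OPR1 (-1.01), DFL2 (-0.93) and JAZ1 (-0.88). Mitochondrial, membrane and other genes were AT1G07135 (-2.98), DIC2 (-2.08), BCS1 (-1.70), PUP18 (-1.40), NHL3 (-1.06), PUP14 (-1.0) and TET8 (-0.79). Of these 44 genes, EXPA11 alone had an interaction above 0.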

How the results depend on the processing

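Against 71 genes, the interaction called 104 with DESeq2 (102 lower), 67 to 75 under other scalings and filters, 72 from the 12 libraries alone and 74 with the replicate block. With 1 library left out it called 54 (without replicate 2 of DPAM-1 with NaCl) to 97 (without replicate 3 of DMSO with NaCl). Same-numbered libraries did not deviate together (18 pairs, r from -0.155 to 0.0824), so no pairing by number was seen. Some differently numbered ones had a higher r, such as 0.148 between replicate 2 of DMSO and replicate 3 of DMSO with NaCl. The replicate block shared 68 of the 71 genes. A log2 difference of at least 1 left 53. Of 44 named called genes, the ones followed singly, 36 held in all 22 other alternatives and 0 reversed. RTFL12, ERF2, EXPA11, UPB1, MAPKKK14, AGP1, XTH18 and XT1 were lost in at least 1. Of 61 named uncalled genes 8 passed in some alternative. The 20 called list genes became 18 (without replicate 1 of DPAM-1 with NaCl) to 29 (without replicate 3 of DMSO with NaCl).

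The same limit left 310 genes for NaCl in DMSO, 237 for NaCl after DPAM-1, 27 for DPAM-1 against DMSO, 34 for the same under NaCl and 149 for the contrast with coronatine. DESeq2 called 308 and 195 genes for DPAM-1 against DMSO without and under NaCl, against 145 and 82. With 1 library left out, calls ran from 1677 (without replicate 3 of DMSO with NaCl) to 2241 for NaCl in DMSO, 1179 to 1514 after DPAM-1, 76 (without replicate 3 of DPAM-1) to 173 for DPAM-1 against DMSO, 35 (without replicate 1 of DPAM-1 with NaCl) to 144 (without replicate 3 of DMSO with NaCl) under NaCl, and 333 (without replicate 1 of coronatine with NaCl) to 754 against coronatine. The cause was not tested. With 3 libraries a group, small differences between responses could not be detected.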

Other observations

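Genes that NaCl changed after coronatine were picked from libraries that do not enter the interaction, a choice made after seeing the data. Of 2095 genes that NaCl raised there, 42 were lower and 1 was higher in the interaction, together 2.05% against 0.499% of all genes. Their median log2 interaction was -0.04, and the middle range of the genes ran from -0.17 to 0.07, against 0.01 and -0.11 to 0.12 over all genes. Of 1716 genes that NaCl lowered there, 4 were lower in the interaction (0.233%), with a median of 0.04.

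Near the threshold of the interaction lay AT1G74450, MAPKKK14 and UPB1 inside it, with adjusted p-values of 0.0442, 0.047 and 0.0473, and AT3G50800, MPK3 and NAC102 outside it, at 0.0554, 0.0554 and 0.0566. MPK3 (AT3G45640), a MAP kinase of immune and stress signalling, read 24.3, 21.0 and 23.9 CPM in DMSO, 27.4, 38.3 and 33.2 CPM in DMSO with NaCl, 35.6, 35.1 and 36.5 CPM after DPAM-1, and 31.4, 33.3 and 27.8 CPM with both. DMSO alone stood below the other 3 groups, and DMSO with NaCl overlapped both DPAM-1 groups.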
